A study of Mus musculus with 6 samples.

Results

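The miR-376 family of the mouse consists of 3 neighbouring hairpins, Mir376a, Mir376b and Mir376c, each of which gives a mature microRNA from either arm. Members were taken by name: every entry for mmu-miR-376a, mmu-miR-376b or mmu-miR-376c, with or without an arm suffix. This gave 6 of the 695 mature microRNAs in the deposited table, namely miR-376a, miR-376b and miR-376c and the other arm of each hairpin, which the table marks with an asterisk. The 6 arrays covered 3 liver tumours and 3 pieces of normal-looking liver lying next to them, from C57BL/6J mice aged 6 months. All tissue, adjacent liver included, came from mice injected at day 1 after birth with 3E10 particles of AAV-Rian-CMV, an adeno-associated virus vector named for Rian, a non-coding RNA gene of the imprinted Dlk1-Dio3 region that is transcribed from the maternal copy. No liver without the vector was analysed here. Each adjacent piece is labelled by its tumour, as pairs 1293, 1309 and 1316. For the third tumour the title gives 1316 while the source name reads 1306. No label says whether the tumours came from separate animals, so the p-values measure only the spread between these samples.

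A microRNA hairpin is cut by Drosha and Dicer into a short duplex, and 1 strand of it is kept by an Argonaute protein while the other is mostly degraded. The kept strand finds messenger RNAs mainly through its seed, bases 2 to 8 from its 5′ end, so paralogs that differ in the seed are expected to repress different targets. The miR-376 hairpins belong to a large cluster of microRNAs in the Dlk1-Dio3 region that is expressed from the maternal chromosome, is active in the embryo, placenta and brain, and is largely silent in adult liver. Primary transcripts of the family are known targets of A-to-I RNA editing in human and mouse tissues. The table gives 1 value for each mature name, and edited and unedited forms were not told apart.

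The mature sequences are shown because the family's arms are similar enough for probes to be a concern and differ in their seeds. RefSeq (GRCm38.p6) gave a mature sequence for 5 of the 6 members. The unstarred names correspond to the 3p arms and the starred names to the 5p arms, and miR-376c-3p is named only. Seeds are in capitals.
miR-376b: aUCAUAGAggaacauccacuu
miR-376a: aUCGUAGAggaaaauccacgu
miR-376b*: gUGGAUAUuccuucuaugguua
miR-376c*: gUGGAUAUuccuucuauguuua
miR-376a*: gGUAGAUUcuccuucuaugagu
All 5 lie on the plus strand of chromosome 12, miR-376c* at chr12:109722733-109722754, miR-376b* at chr12:109723471-109723492, miR-376b at chr12:109723508-109723528, miR-376a* at chr12:109723786-109723807 and miR-376a at chr12:109723824-109723844.

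Counted from the 5′ end, with the base of miR-376b first, miR-376b and miR-376a differ by A4G, C13A and U20G. They share 18 of 21 bases, and 1 of the 3 substitutions lies in the seed. The arms miR-376b* and miR-376c* differ by G19U alone, share 21 of 22 bases and have the same seed. The arm miR-376a* stands at an edit distance of 7 from each of these, and its seed differs from theirs. Outside the family, 0 mature mouse microRNAs of the RefSeq table had any of the 4 seeds shown, and the nearest sequences stood at edit distances of 7 or 8.

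The precursors of miR-376b and miR-376a, with both mature arms in capitals, show where the measured strands lie within each hairpin.
Mir376b: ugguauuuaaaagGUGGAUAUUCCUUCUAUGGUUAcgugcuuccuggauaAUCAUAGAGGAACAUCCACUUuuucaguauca
Mir376a: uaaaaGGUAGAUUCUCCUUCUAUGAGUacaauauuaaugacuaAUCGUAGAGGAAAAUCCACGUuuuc
The Mir376b hairpin is chr12:109723458-109723539 and the Mir376a hairpin chr12:109723781-109723848. The 3 hairpins span 1131 bases in the order Mir376c, Mir376b, Mir376a, with 654 and 241 bases between neighbours. The family is usually assigned to the Mirg transcript. In the RefSeq annotation, however, 0 of the 3 hairpins fell inside the annotated Mirg gene and all 3 lay between Rian and Mirg. Of the 38 hairpins of the cluster measured here, 10 lay inside it.

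The deposited values are log2 intensities after RMA, in which each array has nearly the same distribution. Array medians ran from 6.39 to 6.44 in tumours and from 6.39 to 6.40 in adjacent liver. Tumour 1293 stood apart: it differed by more than 0.5 from the mean of the other tumours for 20.7% of microRNAs, against 7.63% for tumour 1309 and 6.47% for tumour 1316, and at most 0.288% for any adjacent piece. Values without this array are therefore given beside the results whose call, direction or size depended on it. Both tissues had the liver marker miR-122, the main microRNA of hepatocytes, at the top of the scale, with means of 14.69 ± 0.23 in tumours and 14.80 ± 0.04 in adjacent liver (SD, n = 3 each), a difference of -0.11 ± 0.12 (SE; limma adjusted p = 0.66). On every array miR-122 was the highest value, and RMA makes arrays alike in distribution, so a small difference there is partly built in. Detection calls were not used here, so a value near the array median could not be called present or absent.

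In tumours, miR-376b and miR-376a stood far above adjacent liver, and both rose in limma's test over all 695 microRNAs. The increase was 9.22-fold for miR-376b (95% confidence interval 6.72 to 12.6) and 4.45-fold for miR-376a (2.73 to 7.23). The third paralog, miR-376c, had a smaller difference of 1.73-fold (1.11 to 2.72), which did not pass. The starred arms differed by at most 1.33-fold, and none of the 3 passed. In adjacent liver all 6 members lay between 6.18 and 6.50, close to the median of 6.39 over all microRNAs, so the size of a fold is understated wherever the adjacent signal was background. In tissue measured in bulk, a change in the number of cells of a type and a change in RNA per cell cannot be told apart.

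Of all microRNAs, 2.59% were called higher (18 of 695) and 0.288% lower, at a Benjamini-Hochberg adjusted p of 0.05. Of the 6 members, 2 were called higher and 0 lower. The tumours lay above all adjacent pieces for 5 of the 6 members, against 8.63% of all microRNAs (60 of 695). At an unadjusted p of 0.05, 5 members were higher, where 5.9% of all microRNAs were. Without tumour 1293, 5 of the 6 were called higher, in a fit that called 51 of the 695. The median log2 fold change was 0.61 over the 6 members and -0.03 over all microRNAs.

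**Figure D1:**
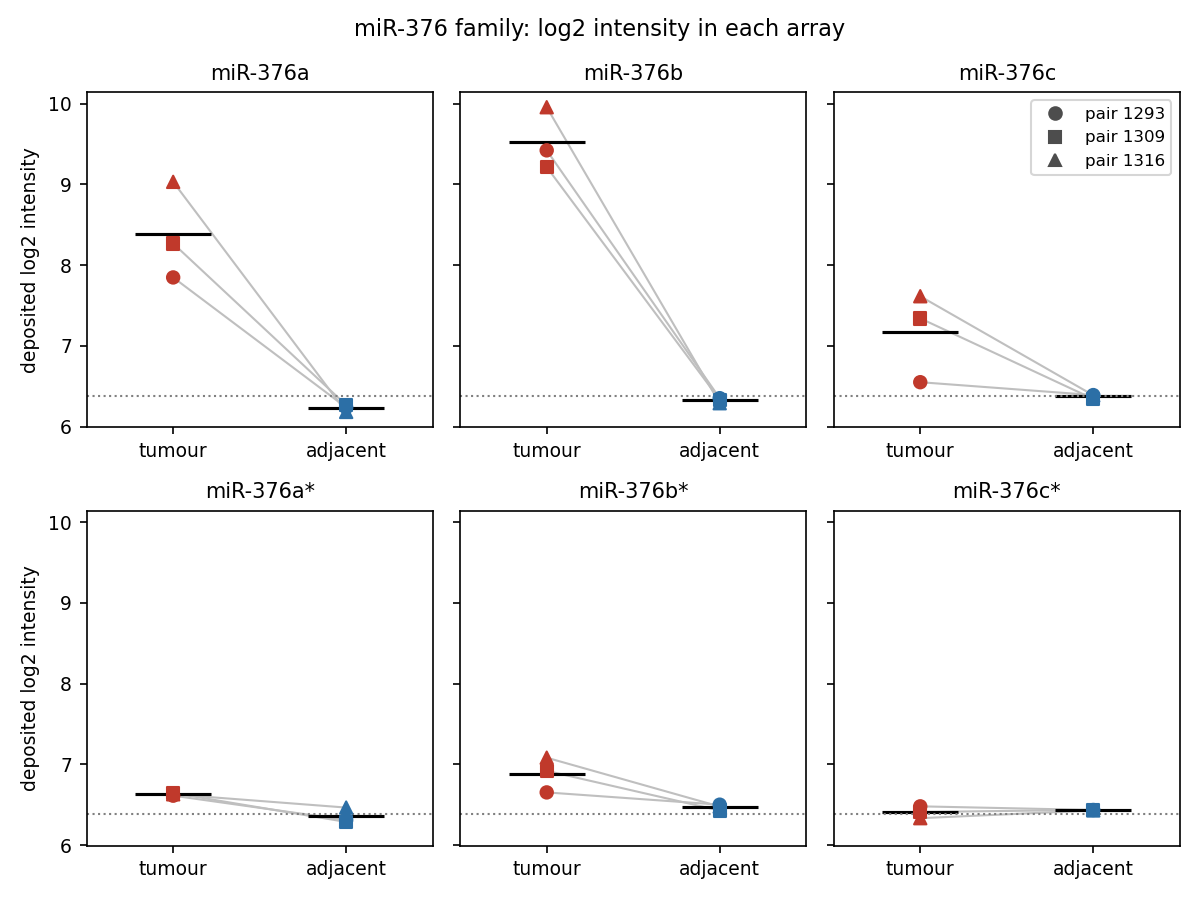
Deposited log2 intensity of the 6 members (vertical axis) in 3 tumours and 3 adjacent liver pieces, one panel a member. Symbols mark the pairs, grey lines join a tumour to its adjacent piece, black bars are group means, and the dotted line is the median adjacent level of all microRNAs, 6.39; the tumour means of miR-376b and miR-376a reach 9.53 and 8.38, while those of the starred arms stay below 6.89.

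The strongest member was miR-376b, the 3p arm of the middle hairpin. It measured 9.42, 9.21 and 9.95 log2 units in tumours 1293, 1309 and 1316, against 6.35, 6.33 and 6.29 in the adjacent pieces. Every tumour exceeded every adjacent piece by at least 2.86 log2 units, and the adjacent pieces hardly differed among themselves. The group means were 9.53 ± 0.38 in tumours and 6.33 ± 0.03 in adjacent liver (SD, n = 3 each). The log2 fold change was 3.20 ± 0.19 (SE; limma adjusted p = 8.4e-04), the second largest of the 695. The call held when pairs entered limma as a replicate block (adjusted p = 0.013), a fit in which 1.73% of all microRNAs were called higher.

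For miR-376a, the 3p arm of the last hairpin, tumours measured 7.85, 8.27 and 9.03 log2 units, against 6.24, 6.27 and 6.18 in adjacent liver. The groups were again far apart, and tumour 1316 was the highest of the 3. Means were 8.38 ± 0.60 in tumours and 6.23 ± 0.04 in adjacent liver (SD, n = 3 each), a log2 fold change of 2.15 ± 0.29 (SE; limma adjusted p = 0.015). With the replicate block the difference was the same and the adjusted p from limma was 0.055, so the call ended. It also ended without any 1 of the adjacent pieces 1293, 1309 and 1316, at log2 fold changes of 2.16, 2.17 and 2.13 (limma adjusted p = 0.10, 0.10 and 0.11), and without the whole of pair 1309 (2.23, limma adjusted p = 0.15). Without tumour 1293 the call held, at a log2 fold change of 2.42 ± 0.20 (SE; limma adjusted p = 9.3e-04).

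The value of miR-376c, the 3p arm of the first hairpin, depended on the tumour. It measured 6.55, 7.34 and 7.61 log2 units in tumours 1293, 1309 and 1316, against 6.39, 6.34 and 6.39 in the adjacent pieces. Tumour 1293 lay only 0.16 above its adjacent piece, while tumours 1309 and 1316 lay 0.997 and 1.23 above theirs. The log2 fold change was 0.79 ± 0.26 (SE; limma adjusted p = 0.17). Without tumour 1293 it was 1.10 ± 0.08 (SE) and was called (limma adjusted p = 8.3e-04), and without pair 1293 it was 1.11 and was called (limma adjusted p = 0.017). Leaving out this tumour moved many other microRNAs past the threshold too, 51 higher and 85 lower, against 18 and 2 with all arrays.

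The 5p arm miR-376b* measured 6.65, 6.92 and 7.08 log2 units in tumours 1293, 1309 and 1316, against 6.50, 6.43 and 6.48 in the adjacent pieces. The groups did not overlap, but tumour 1293 lay 0.15 above the nearest adjacent value. The log2 fold change was 0.42 ± 0.11 (SE; limma adjusted p = 0.12). Without tumour 1293 it was 0.53 ± 0.06 (SE) and was called (limma adjusted p = 0.0028), and without pair 1293 it was 0.55 (limma adjusted p = 0.023).

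For miR-376a*, the 5p arm of the last hairpin, tumours measured 6.61, 6.64 and 6.63 log2 units, against 6.31, 6.29 and 6.46 in adjacent liver. Here the tumours were the tighter group, with an SD of 0.016 against 0.096 in adjacent pieces. The log2 fold change was 0.27 ± 0.07 (SE; limma adjusted p = 0.098). It was called without tumour 1293 (0.28, limma adjusted p = 0.030) but not without pair 1293 (0.26, limma adjusted p = 0.11).

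The 5p arm miR-376c* was the one member whose groups overlapped. It measured 6.48, 6.41 and 6.33 log2 units in tumours, against 6.44, 6.44 and 6.43 in adjacent liver. The log2 fold change was -0.03 ± 0.06 (SE; limma adjusted p = 0.85), with a 95% confidence interval of -0.17 to 0.12. Its direction turned without tumour 1316 (0.012) and without pair 1316 (0.0096).

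**Figure D2:**
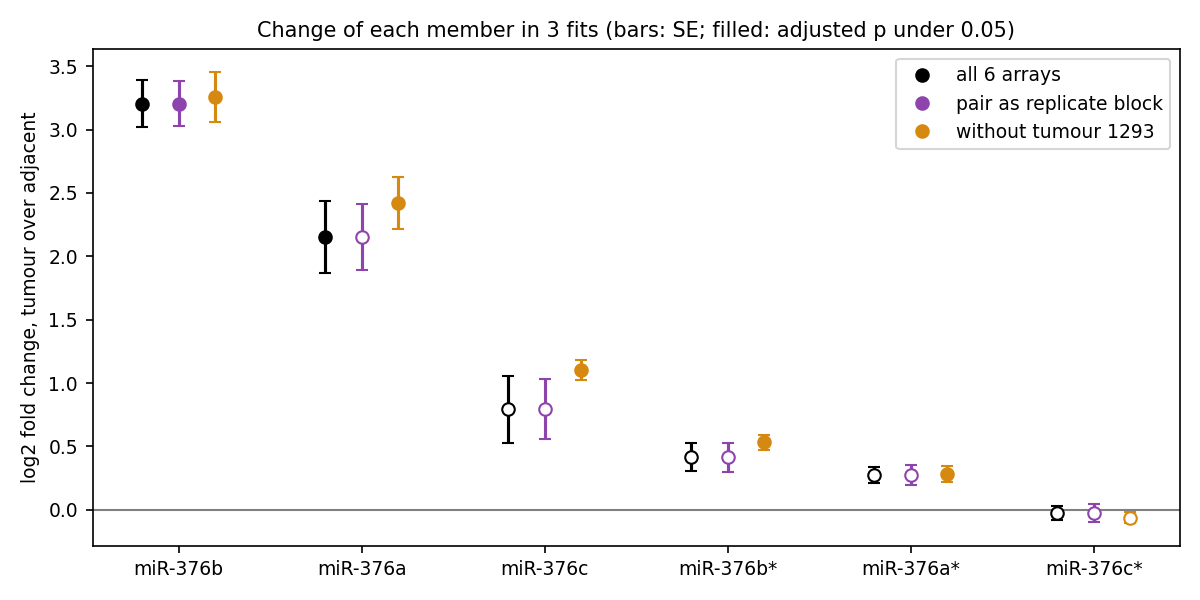
Log2 fold change of tumour over adjacent (vertical axis, bars are SE) for each member in the fit of all 6 arrays, with the pair as a replicate block, and without tumour 1293; filled points have an adjusted p under 0.05. The value of miR-376b stays between 3.20 and 3.26 and is filled in all 3 fits, miR-376a is open under the block, and miR-376c, miR-376b* and miR-376a* are filled only without tumour 1293.

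The paralogs and arms were then compared by their changes, since levels of different probes cannot be set against each other. For 9 comparisons the difference between 2 members was taken within each array and compared between tumours and adjacent liver by an exact permutation test over samples, two-sided. The smallest p of an exact permutation test with 3 arrays a group is 0.10, and that of an exact sign-flip test over 3 pairs is 0.25, so no comparison could pass. The error given is the SD over the 3 pairs. In adjacent liver the mean within-array differences of the 9 comparisons ran only from -0.15 to 0.11 log2 units. Gaps that involve a 3p arm therefore lie close to the difference in tumour level between 2 probes. How far probe response shaped these gaps, and the order of the paralogs, was not tested.

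Among the 3p arms, the change of miR-376b exceeded that of miR-376a by 1.05 ± 0.35 log2 units (SD, n = 3 pairs; exact p = 0.10, 0.11 after Benjamini-Hochberg adjustment over the 9). The gap was 1.46 in pair 1293, 0.88 in pair 1309 and 0.82 in pair 1316. The change of miR-376b exceeded that of miR-376c by 2.41 ± 0.51 (SD, n = 3 pairs), with 2.91, 1.88 and 2.44 in the same pairs. That of miR-376a exceeded that of miR-376c by 1.36 ± 0.32 (SD, n = 3 pairs), with 1.45, 1.003 and 1.62. The order miR-376b, miR-376a, miR-376c thus held within each of the 3 pairs, and for all 3 gaps the within-array differences of tumours and adjacent pieces did not overlap (exact p = 0.10 each). The gaps were 0.84, 2.16 and 1.32 without tumour 1293.

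Between the 5p arms the gaps were smaller. The change of miR-376b* exceeded that of miR-376c*, which differs from it by G19U alone, by 0.44 ± 0.30 log2 units (SD, n = 3 pairs; exact p = 0.10), with 0.11, 0.52 and 0.70 in pairs 1293, 1309 and 1316. Without tumour 1293 it was 0.59. For miR-376a* against miR-376c* the gap was 0.30 ± 0.07 (SD, n = 3 pairs; exact p = 0.10). For miR-376b* against miR-376a* it was 0.14 ± 0.29 (SD, n = 3 pairs; exact p = 0.40), and pair 1293 had the opposite sign, -0.15. Without tumour 1293 this gap was 0.25 (exact p = 0.10, the smallest that 3 against 2 arrays allow). Probe sequences were not used here, and how much of a signal comes from the similar paralog was not tested.

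Within each hairpin the 3p arm changed more than the 5p arm in all 3 pairs. The gap was 2.79 ± 0.35 log2 units for Mir376b, 1.88 ± 0.72 for Mir376a and 0.82 ± 0.63 for Mir376c (SD, n = 3 pairs; exact p = 0.10 each, 0.11 after adjustment over the 9). For Mir376c it was 0.11 in pair 1293, against 1.02 in pair 1309 and 1.32 in pair 1316. Without tumour 1293 the gaps were 2.73 for Mir376b, 2.14 for Mir376a and 1.17 for Mir376c. Most 5p values lay near the array median. The exception was miR-376b* in tumours 1309 and 1316, at 6.92 and 7.08, above the 75th percentiles of those arrays (6.78 and 6.76). These gaps are differences on the deposited scale and would be misstated wherever the 5p signal was background.

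The cluster, taken here from miR-379 to miR-3072, held 13 other hairpins with both arms measured. Their gap between arms, taken without sign, had a median of 0.39 and ran from 0.012 for Mir409 to 2.63 for Mir154. No hairpin of the 13 had a larger gap than Mir376b. Those of Mir154, Mir300 and Mir299a were larger than that of Mir376a, and the same 3 were larger than that of Mir376c. Without tumour 1293, Mir154 had a larger gap (2.82) than Mir376b (2.73), and Mir300 (2.10) and Mir299a (1.66) had smaller gaps than Mir376a (2.14). Outside the family, starred names were not matched to the 5p or 3p side, so arms are compared by name and sides can be mixed. By name, the starred or 5p arm led in 6 of the 13, but in 0 of the 3 hairpins of the family. Without tumour 1293 it led in 5 of the 13, and in none of the family. With all arrays the 6 included miR-154* (4.52, against 1.89 for miR-154) and miR-299* (2.25, against 0.28 for miR-299). Of the 13, 7 had neither arm called, 5 had 1 arm and 1 had both. In the family Mir376b and Mir376a had 1 arm called and Mir376c had neither. Without tumour 1293 this turned over: Mir376b and Mir376a had both arms called and Mir376c had 1, while of the 13 others 3 had neither arm called, 2 had 1 arm and 8 had both.

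**Figure D3:**
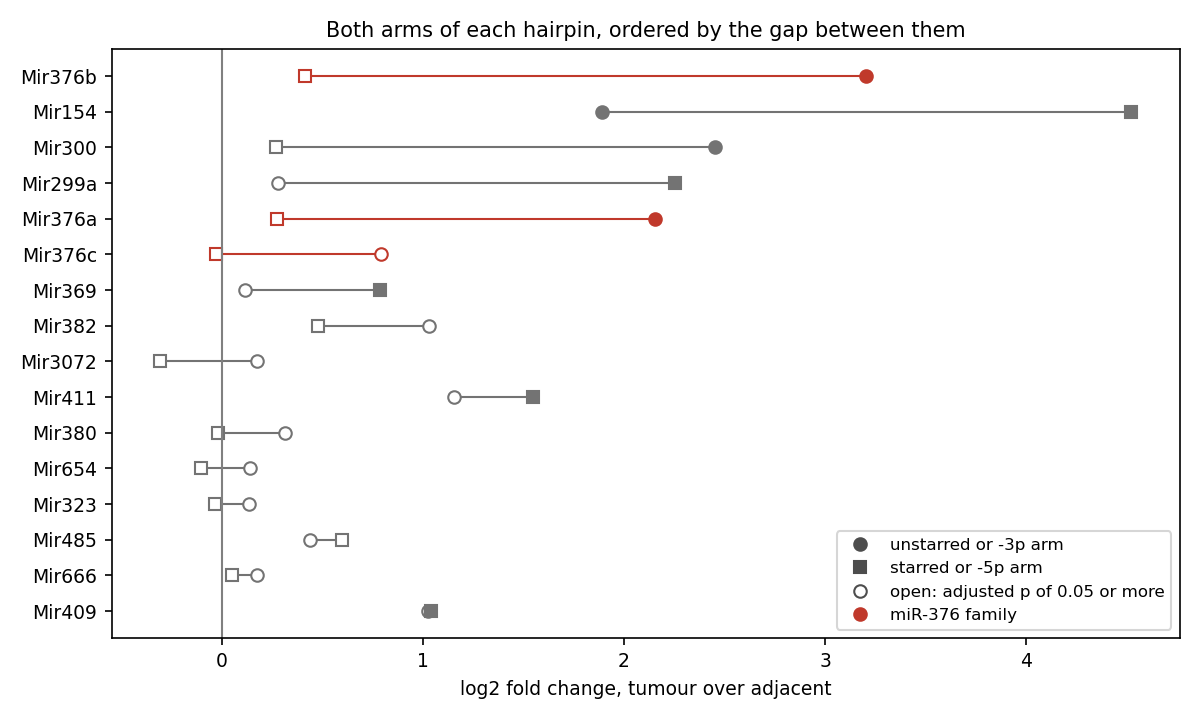
Log2 fold change of tumour over adjacent (horizontal axis) for both arms of 16 hairpins, ordered by the gap between arms; circles are unstarred or 3p arms, squares starred or 5p arms, filled symbols have an adjusted p under 0.05. Mir376b at the top has a gap of 2.79, and in the 3 family hairpins, in red, the circle lies to the right.

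Along the chromosome the family takes places 16, 18 and 19 among the 38 measured hairpins. Of the 48 microRNAs of the other hairpins, 14 were called higher (2.59% of all microRNAs were) and 0 lower (0.288% were). A higher mean in tumours was found for 41 (40.4% of all microRNAs), and the median log2 fold change of the 48 was 0.35. The count called higher was 29 without tumour 1293, 26 without pair 1293, 9 without any 1 of the adjacent pieces, and 7 without pair 1309 or pair 1316. Over all 695 microRNAs the same fits called 51, 35 and 10 higher, then 8 without pair 1309 and 9 without pair 1316. Large and small changes alternated over short distances around the family. Upstream, miR-543 and miR-495 rose by 2.07 and 2.65, while miR-667, next to Mir376c, was at 0.05. Between Mir376c and Mir376b lies Mir654, with 0.14 for miR-654-3p (limma adjusted p = 0.75) and -0.10 for miR-654-5p (limma adjusted p = 0.57). Without tumour 1293 the direction of miR-654-3p turned, to -0.10. Downstream of Mir376a, miR-300 rose by 2.45, miR-300* was at 0.27 (limma adjusted p = 0.44), miR-381 rose by 0.42 and miR-487b was at 0.33 (limma adjusted p = 0.13). Without tumour 1293, miR-300* was at 0.43 and miR-487b at 0.40, and both were called (limma adjusted p = 0.028 and 0.010). The call of miR-381 ended under the replicate block (limma adjusted p = 0.16).

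**Figure D4:**
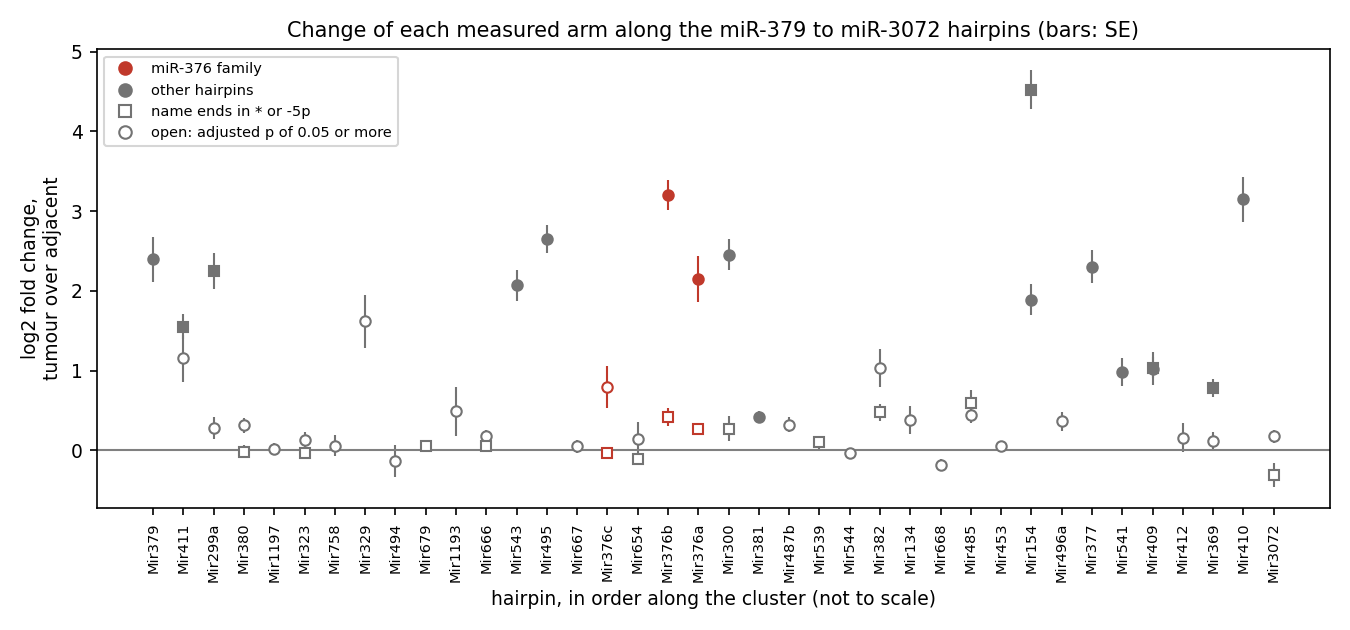
Log2 fold change of tumour over adjacent (vertical axis, bars are SE) for each measured arm of 38 hairpins in chromosomal order (horizontal axis, not to scale), with the family in red and squares for starred or 5p names. Filled symbols have an adjusted p under 0.05; miR-376b and miR-376a stand beside miR-300 at 2.45, with Mir654 and miR-667 near 0.

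Likeness was measured as the root-mean-square distance between 2 microRNAs over the 6 arrays, each set relative to its own mean in adjacent liver. Closest to miR-376b was miR-410, the product of a hairpin near the far end of the cluster, at a distance of 0.15 log2 units, then miR-495 at 0.39 and miR-300 at 0.53. In tumours 1293, 1309 and 1316, miR-410 measured 9.57, 8.91 and 10.08 log2 units, against 6.39, 6.36 and 6.35 in adjacent liver. Tumour 1309 was thus the lowest and tumour 1316 the highest for miR-376b and miR-410, and miR-495 and miR-300 had this order too. With adjacent values so even, the distance is set mainly by the size of the rise in tumours. Closest to miR-376a were miR-543 at 0.14, miR-377 at 0.18 and miR-379 at 0.20. All of these belong to the same cluster of hairpins. The distance between miR-376a and miR-376b themselves was 0.77, larger than that of either from its nearest microRNAs outside the family.

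Markers of other cell types were set beside the family, since microRNAs of this region are also expressed outside hepatocytes. Their part in the result was not tested. None of the markers was called with all arrays. Without tumour 1293, 5 stromal, 1 endothelial and 1 hepatocyte microRNA were called lower, in a fit that called 85 of all 695 microRNAs lower. The 6 neural microRNAs had a median log2 fold change of -0.05, with summed linear intensities of 494 to 540 in tumours and 527 to 573 in adjacent liver, and the largest change was -0.27 (miR-219-5p). The 5 muscle microRNAs had a median of -0.07 and sums of 363 to 433 in tumours and 419 to 429 in adjacent liver, led by miR-133a (-0.14). Of the 8 stromal microRNAs 3 had a higher mean in tumours; the median was -0.24, the sums were 844 to 900 in tumours and 1060 to 1153 in adjacent liver, and miR-199a-3p was at -0.85 (limma adjusted p = 0.089). The 6 leukocyte microRNAs were split: tumours averaged higher for 3 of them (2 without tumour 1293). The leukocyte median was -0.13, and the largest change was -0.45 (miR-223). Leukocyte sums were 701 to 987 in tumours and 910 to 1050 in adjacent liver. The 2 arms of the endothelial miR-126 had a median of -0.25, and miR-126-5p was at -0.39; the sums were 1215 to 1510 in tumours and 1442 to 1546 in adjacent liver. The 5 hepatocyte microRNAs had a median of -0.45, led by miR-194 (-0.76), with sums of 25743 to 34467 in tumours and 34312 to 35191 in adjacent liver. These sums are mostly miR-122, which measured 14.42 log2 units in tumour 1316 and 14.82 in tumours 1293 and 1309. Without tumour 1293 the stromal, leukocyte, muscle and endothelial medians were -0.32, -0.04, -2.1e-04 and -0.17. Single values were then -0.17 for miR-219-5p, -0.06 for miR-133a, -0.25 for miR-223 and -0.22 for miR-126-5p. In the same fit miR-199a-3p was at -0.65 and was called lower (limma adjusted p = 0.0040). There miR-194 was at -0.59 and miR-122 at -0.18.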

How the data were processed

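RNA was prepared from frozen tissue, labelled with cyanine 3-pCp and hybridised to 1-colour Agilent microRNA arrays, per the labels' protocols. The authors deposited log2 values made with RMA, per the submitters' processing notes, which also name limma without version. No source gives the log base, which was taken as 2, as RMA returns. Scanner files, probe sequences and detection calls were not used here. The table had 695 rows, 0 missing values and 0 columns of other series.

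All rows were fitted with limma 3.58.1 in R 4.3.3 (lmFit, eBayes), tumour against adjacent, two-sided, with Benjamini-Hochberg adjustment over all rows. SDs and n = 3 refer to arrays, and their number limits the precision. Each adjacent piece is labelled with its tumour, so pairs served as a block in an alternative; in pairs 1293, 1309 and 1316, tumour and adjacent deviations from their group means had correlations of -0.05, 0.07 and -0.0031. The fits were tested on simulated data with large changes and no pair effect, so small changes and pairing were not tested there. Alternatives were the block, quantile normalization, centring on the median or 75th percentile, array weights, 2 filters on low values, eBayes with trend and robust options, and leaving out each array or pair. The members and lists were chosen with earlier results of these data known. Every member was named; other microRNAs were named as the 3 nearest to each called member, as the nearest hairpins on either side, as the largest change in each marker list, and miR-122. The arms of Mir154, Mir299a and Mir409 were named after their values were seen. Sequences and order came from RefSeq, edit distances from edlib 1.3.9.post1, figures from matplotlib 3.10.9 in Python 3.11.15.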

Additional observations from a re-analysis of the deposited data

How the results depend on the processing

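Only miR-376b was called under all 17 alternatives, at 2.97 to 3.37 on the log2 scale when arrays or pairs were left out. For miR-376a, the replicate block left the log2 fold change at 2.15 and ended the call, and values without single arrays or pairs ran from 1.80 to 2.42. Leaving out arrays or pairs gave 0.57 to 1.11 for miR-376c, 0.32 to 0.55 for miR-376b*, 0.23 to 0.33 for miR-376a* and -0.062 to 0.012 for miR-376c*, which turned without tumour 1316 (0.012) and without pair 1316 (0.0096). Array weights called miR-376c (1.10), miR-376b* (0.54) and miR-376a* (0.28), with 51 microRNAs higher and 87 lower over the table and 29 microRNAs of the cluster's other hairpins higher; the cause was not tested. Over all microRNAs, 0 were called lower by limma under the block or with the intensity trend, where 87 and 79 were lower at an unadjusted p of 0.05. Leaving out arrays or pairs gave 8 to 51 called higher, 0 to 85 lower and 7 to 29 higher among the other hairpins; the highest counts came without tumour 1293, and without tumour 1309 37 were lower, while a fit with fewer arrays has less power. The gap between miR-376b* and miR-376a* ran from -0.0073, without pair 1316, to 0.29, and the other 8 gaps kept their sign in every setting run. Centring changed no gap, by construction. The filter at the median left out miR-376c*, which was not tested there.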
